A study of Mus musculus with 12 samples.

Results

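Among the genes of the caput epididymidis transcriptome, 8 code for enzymes and partner proteins that make microRNAs (miRNAs) or methylate transfer RNAs (tRNAs), and they are described here in Gpx5 knockout (KO) and wild-type (WT) mice at 13 months. They are Dgcr8, Xpo5, Dicer1, Tarbp2, Prkra, Trdmt1, Nsun2 and Mettl1, taken by gene name from the table of RPKM values (reads scaled to transcript length and library size), which lists 22021 genes. Each has 1 transcript row in the table, and each passed the filter of at least 1 RPKM in a library, which left 15000 genes to compare.

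The study set mice labelled KO for Gpx5, the gene of a glutathione peroxidase secreted by the epididymis, against WT mice, all of strain C57BL/6. The transcriptome comes from the KO caput and the WT caput at 13 months. Small RNAs of 18 to 40 nt were sequenced in 5 pairs of KO and WT libraries, from caput, corpus, cauda and testis at 13 months and from caput at 2 months. At 13 months the tissue came from 7 KO and 7 WT mice and was pooled, and the number of 2-month mice is not given in the sources used here, nor is the altered part of Gpx5. Caput and cauda were pierced with a needle and held in buffer to let spermatozoa leave, while corpus and testis were taken as they were. With 1 library per group there is no replicate error, no test and no p-value, and every interval below is a 95% interval that covers counting error only.

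In the canonical miRNA pathway, the nuclear Microprocessor of Drosha and its RNA-binding partner Dgcr8 cuts hairpins out of long transcripts, exportin-5 (Xpo5) carries the hairpins to the cytoplasm, and Dicer1, aided by Tarbp2 or Prkra, cuts them to mature miRNAs. Trdmt1 (also called Dnmt2) and Nsun2 put methyl groups on cytosines of tRNAs, and Mettl1 with its partner Wdr4 methylates a guanosine of tRNAs. Methylation by Trdmt1 and by Nsun2 is known to protect tRNAs from being cut by the ribonuclease angiogenin. The epididymis is known for abundant tRNA fragments, which its epithelium can pass to maturing spermatozoa.

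The targeted gene was examined first. Gpx5 had 918 RPKM in the KO library and 8474 RPKM in the WT library, so it was 9.23-fold lower in KO and still abundant. The libraries held 13929327 (KO) and 14348655 (WT) mapped reads, and genes made by caput principal cells were abundant in both (17 genes sum to 37774 RPKM in KO and 15715 RPKM in WT). Transcripts of testicular cells separated the libraries. Spermatid and sperm markers sum to 199.8 RPKM in KO and 12855 RPKM in WT, with all 20 at least 2-fold lower in KO. Markers of spermatogonia and spermatocytes sum to 13.0 and 667 RPKM (15 of 16 lower), and Leydig cell markers to 11.9 and 371 RPKM (7 of 8 lower). Of the defining markers Stra8 was at 0 in KO, and no other germ cell or Leydig marker was at 0 in either library. Sertoli cell markers sum to 14.8 and 20.03 RPKM, with 3 of 5 tested lower and Fshr at 0 in KO. Most of the KO sum came from Inhbb (10.1 RPKM in KO and 7.62 RPKM in WT) and Sox9 (4.21 and 3.26 RPKM), neither of them called. The lower ones were Wt1 (0.0929 RPKM in KO and 3.45 RPKM in WT), Dhh (0.182 and 3.30 RPKM) and Gata1 (0.0795 and 2.08 RPKM). In such bulk tissue, fewer cells of a type and less RNA per cell cannot be told apart. How transcripts of testicular cells came to be in the caput libraries was not tested either.

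Of the 8 genes, 1 was at least 2-fold lower in KO on the log2(RPKM + 1) scale, 0 were higher and 7 lay within 2-fold. Among all 15000 tested genes, 22.1% were lower and 2.77% higher by the same rule, so the members' counts lie near this background. The 8 differences (KO minus WT) ranged from -1.63 to 0.79 with a median of 0.03, and the median over all tested genes was 0.05. The gene past 2-fold was Tarbp2. Nsun2 was lower by less than 2-fold, Dicer1 and Mettl1 were higher by less than 2-fold, and for Dgcr8, Xpo5, Prkra and Trdmt1 the interval of the ratio included 1.

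**Figure D1:**
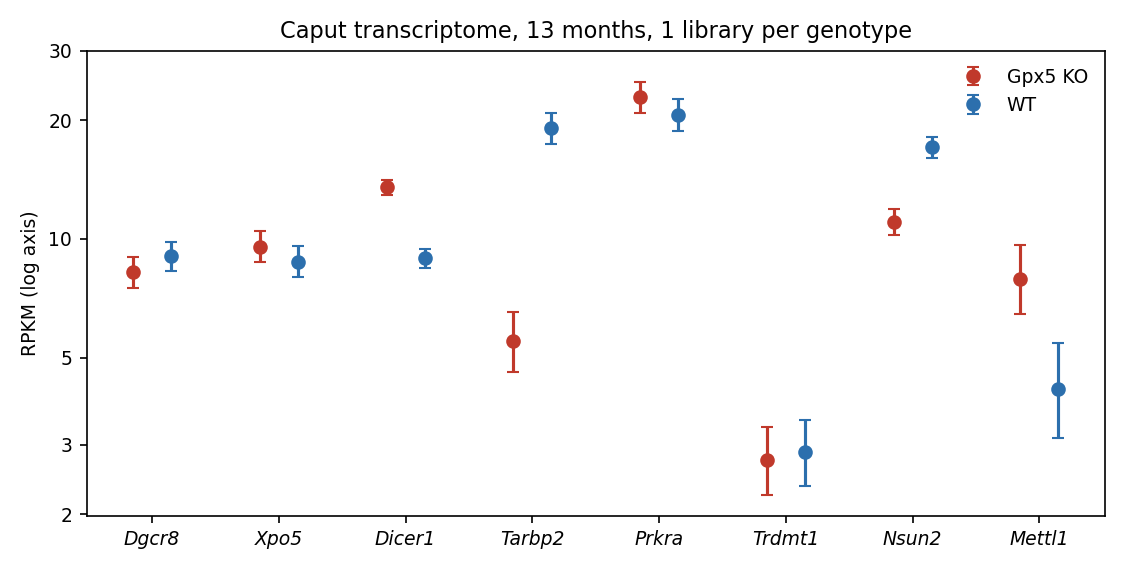
RPKM on a log axis for the 8 genes in the caput transcriptome at 13 months, KO (red) left of WT (blue), 1 pooled library each; bars are exact Poisson intervals at 95% on the recovered reads and cover counting error only. Tarbp2 stands at 5.50 RPKM in KO and 19.1 RPKM in WT, while the bars of Dgcr8, Xpo5, Prkra and Trdmt1 overlap.

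Dgcr8 (NM_033324), the RNA-binding partner of Drosha, had 8.24 RPKM in KO and 9.04 RPKM in WT, from 485 and 548 reads recovered from the RPKM values. The ratio of KO to WT was 0.912 (0.805 to 1.03), so the libraries did not differ beyond counting error. Drosha itself, the nuclease, was at 1.84 RPKM in KO and 2.12 RPKM in WT (ratio 0.867, 0.672 to 1.117), the lower of both Microprocessor subunits in either library. Xpo5 (NM_028198), the export receptor, had 9.56 RPKM in KO and 8.76 RPKM in WT, from 494 and 466 reads (ratio 1.09, 0.960 to 1.24). Ran, the GTPase that drives export, was in contrast lower in KO, with 32.6 RPKM in KO and 78.9 RPKM in WT (log2 difference -1.25).

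Dicer1 (NM_148948), the nuclease that releases the mature duplex, had 13.5 RPKM in KO and 8.94 RPKM in WT, from 1853 and 1263 reads. It was 1.51-fold higher in KO (1.41 to 1.62; log2 difference 0.55), and 80.8% of the tested genes had a lower difference. Against Dgcr8 it stood at 1.64 in KO and 0.988 in WT. The ratio of Dicer1 to Xpo5 was likewise 1.41 in KO and 1.02 in WT. Of Dgcr8, Xpo5 and Dicer1, the members for the nuclear cut, export and the cytoplasmic cut, Dicer1 had an interval that left out 1, and the differences between them were not tested.

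Tarbp2 (NM_009319), a double-stranded RNA-binding protein that helps Dicer load its product, had 5.50 RPKM in KO and 19.1 RPKM in WT, from 133 and 476 reads. The ratio was 0.288 (0.236 to 0.350), or 3.47-fold lower in KO (2.86 to 4.24; log2 difference -1.63), and 15.2% of the tested genes had a lower difference. Prkra (NM_011871), the related partner also called PACT, had 22.9 RPKM in KO and 20.6 RPKM in WT, from 495 and 460 reads (ratio 1.11, 0.974 to 1.26). The level of Tarbp2 was thus 0.241 of that of Prkra in KO and 0.926 in WT. Dicer1 was 2.46 times as high as Tarbp2 in KO and 0.468 times as high in WT. In the same libraries the spermatid and sperm markers had a median log2 difference of -5.51 and the Leydig cell markers one of -3.44, and their part in the Tarbp2 difference was not tested. The authors' deposited table gives Tarbp2 a log2 fold change of -1.72 and a GFOLD value, a cautious fold change, of -1.40.

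Genes whose pair of levels was closest to Tarbp2 were sought by the distance on log2(RPKM + 1) over the 2 libraries. The nearest were Samd4b (5.44 RPKM in KO and 19.0 RPKM in WT), Ift80, an intraflagellar transport gene (5.51 and 19.9 RPKM), and Kifap3, which codes for a kinesin adaptor (5.82 and 18.9 RPKM). In all, 5 genes lay within 0.1 of Tarbp2, and likeness over 2 libraries is a description.

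Trdmt1 (NM_010067), the tRNA-Asp, tRNA-Gly and tRNA-Val cytosine methyltransferase, had 2.75 RPKM in KO and 2.88 RPKM in WT, from 101 and 109 reads. It was the lowest of the 8 in both libraries, and its ratio of 0.955 carried an interval from 0.721 to 1.26. Nsun2 (NM_145354), which methylates cytosines in many tRNAs, had 11.0 RPKM in KO and 17.1 RPKM in WT, from 657 and 1049 reads. It was 1.55-fold lower in KO (ratio 0.645, 0.584 to 0.712; log2 difference -0.59). Mettl1 (NM_010792), the guanosine methyltransferase, went the other way, with 7.93 RPKM in KO and 4.16 RPKM in WT, from 98 and 53 reads. Its ratio was 1.90 (1.35 to 2.71; log2 difference 0.79), and 92.1% of the tested genes had a lower difference. Wdr4, without which Mettl1 is inactive, had 5.22 RPKM in KO and 3.91 RPKM in WT (ratio 1.34, 1.117 to 1.60). Nsun2 was therefore 1.39 times as high as Mettl1 in KO and 4.10 times as high in WT.

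The order of the levels differed between the libraries mainly through Tarbp2 and Dicer1. In KO the order was Prkra, Dicer1, Nsun2, Xpo5, Dgcr8, Mettl1, Tarbp2 and Trdmt1, and the intervals of neighbours overlapped from Nsun2 down to Tarbp2. In WT the order was Prkra, Tarbp2 and Nsun2, then Dgcr8, Dicer1 and Xpo5, then Mettl1 and Trdmt1, with overlapping intervals of neighbours inside each of these groups. Tarbp2 was next to Prkra in WT and next to last in KO. Dicer1 lay below Nsun2 in WT and above it in KO, and their intervals did not overlap in either library. RPKM values are per transcript length, so levels can be set side by side between genes.

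**Figure D2:**
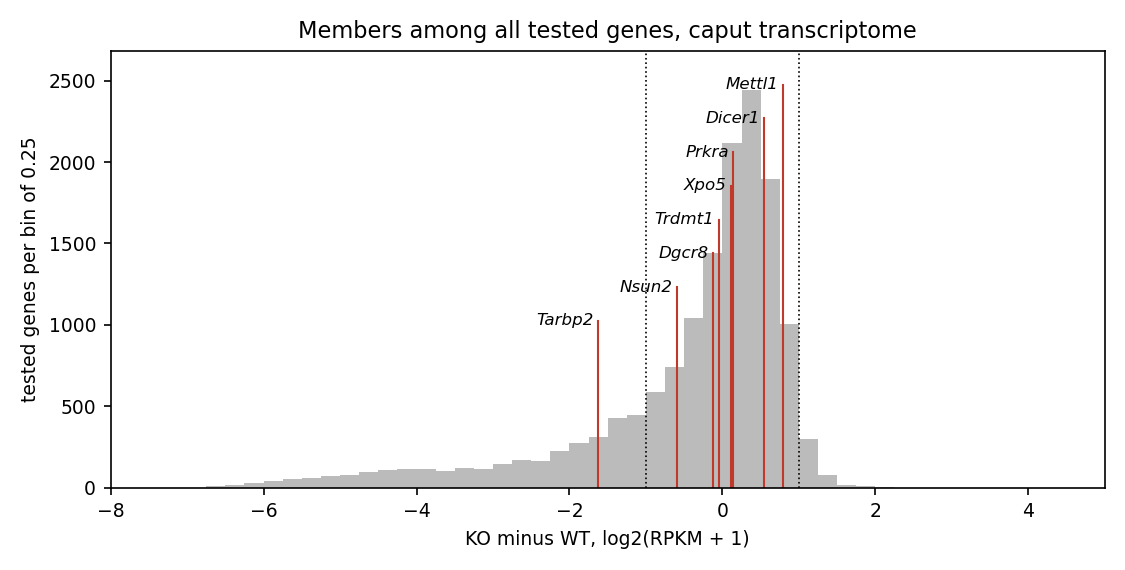
Number of tested genes (grey, bins of 0.25) by their difference in log2(RPKM + 1), KO minus WT, with the 8 genes as red lines whose heights only separate the names; dotted lines mark 2-fold. Tarbp2, at -1.63, is the gene outside the dotted lines, and Mettl1, at 0.79, is the highest.

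Scaling bears on these directions. The caput principal cell markers were at a median log2 difference of 1.08, basal cell markers at 0.86, clear cell markers at 0.87, muscle and stroma markers at 0.49 and immune markers at 0.16. Centred on the caput principal cell markers, all 8 genes were lower in KO, and 4 were past 2-fold (Tarbp2 at -2.71, Nsun2 at -1.67, Dgcr8 at -1.20 and Trdmt1 at -1.13). By the same centring 7713 of all 15000 tested genes were at least 2-fold lower, and their median was -1.03 against -1.04 for the members. The members' count is thus near this background and is no result about them. Dicer1 was then at -0.53 and Mettl1 at -0.29, so the higher values of both hold on the RPKM scale but not relative to those markers. With the libraries brought to one total after leaving out genes at least 8-fold different, the values were -1.99 for Tarbp2, -0.99 for Nsun2, 0.14 for Dicer1 and 0.40 for Mettl1. Tarbp2 was at least 2-fold lower in KO under each of these scalings.

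Other genes of the miRNA pathway had a median difference of 0.03 over 21 tested genes, with 3 lower and 0 higher. Over all tested genes 22.1% were lower, so this count is below the background and is no result about the list. The lower ones were Hsp90aa1 (86.7 RPKM in KO and 358 RPKM in WT; log2 difference -2.03), Ran, and the Argonaute gene Ago4 (1.59 and 4.72 RPKM; -1.15). Hsp90 chaperones help Argonaute proteins take up small RNAs, and the other cytosolic form, Hsp90ab1, had 522 RPKM in KO and 317 RPKM in WT (0.72). Hspa8, listed as Hsc70, had 386 RPKM in KO and 256 RPKM in WT (0.59). Argonaute 2, the slicing Argonaute, was near equal at 4.67 RPKM in KO and 4.82 RPKM in WT. Of 11 tested genes of miRNA tailing and turnover 1 was lower, the let-7 inhibitor Lin28b, with 1 read in KO and 118 reads in WT (log2 difference -1.32). Its relative Lin28a, under the filter, had 0 reads in KO and 44 in WT. The most abundant of this list were Tsn (23.4 RPKM in KO and 20.04 RPKM in WT) and its partner Tsnax (20.6 and 20.02 RPKM).

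The tRNA methyltransferase list leaves out the members and holds tRNA methyltransferases, their subunits and related enzymes such as Nsun7. Of its 30 tested genes, 4 were lower and 0 higher, with a median of -0.02. This count too is below the 22.1% of all tested genes that were lower. Nsun7, a paralog of Nsun2, showed the widest gap, with 0.366 RPKM in KO and 22.1 RPKM in WT (log2 difference -4.08). Trmt10a, a guanosine methyltransferase, had 1.61 RPKM in KO and 7.60 RPKM in WT (-1.72), and Trmt61b, a mitochondrial adenosine methyltransferase, had 6.99 and 23.4 RPKM (-1.61). The Trmt61b values are those of a non-coding RefSeq transcript of the gene, from 62 and 214 reads. Thumpd3 had 13.0 RPKM in KO and 28.2 RPKM in WT (-1.06), while Trmt112, an activating subunit of several methyltransferases, was near equal at 25.6 and 25.9 RPKM. Of 3 tested DNA methylation genes, which are relatives or partners of the family Trdmt1 belongs to, Uhrf1 was lower (1.88 RPKM in KO and 8.77 RPKM in WT), while Dnmt1 was at -0.47 and Dnmt3a at 0.18. The germ cell markers moved with these lower genes, and their part was not tested.

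Genes that cut or process tRNAs had a median of 0.65 over 8 tested genes, with 1 lower and 0 higher, against 22.1% lower and 2.77% higher over all tested genes. Dis3, an exosome nuclease, was lower (4.36 RPKM in KO and 14.4 RPKM in WT; -1.52). Angiogenin (Ang) had 6.00 RPKM in KO and 2.52 RPKM in WT, from 67 and 29 reads (ratio 2.38, 1.52 to 3.82). On the log2(RPKM + 1) scale, which understates changes of low genes, its difference was 0.99, so it was not called. Rnh1, the inhibitor of angiogenin, had 139.7 RPKM in KO and 74.5 RPKM in WT (0.90). Rnaset2a and Rnaset2b, near-identical copies, were both at 0.86 and came to the same recovered reads (3736 in KO and 2119 in WT), so the same reads may be counted for both. With this pair counted once, an alternative chosen after seeing the data, the median of the list was 0.44 over 7 genes. Centred on the caput principal cell markers, the median over 8 genes was -0.43, and that of all tested genes was -1.03. Rescaled without genes at least 8-fold different, the list was at 0.21. The positive median of the list thus does not hold relative to those markers.

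**Figure D3:**
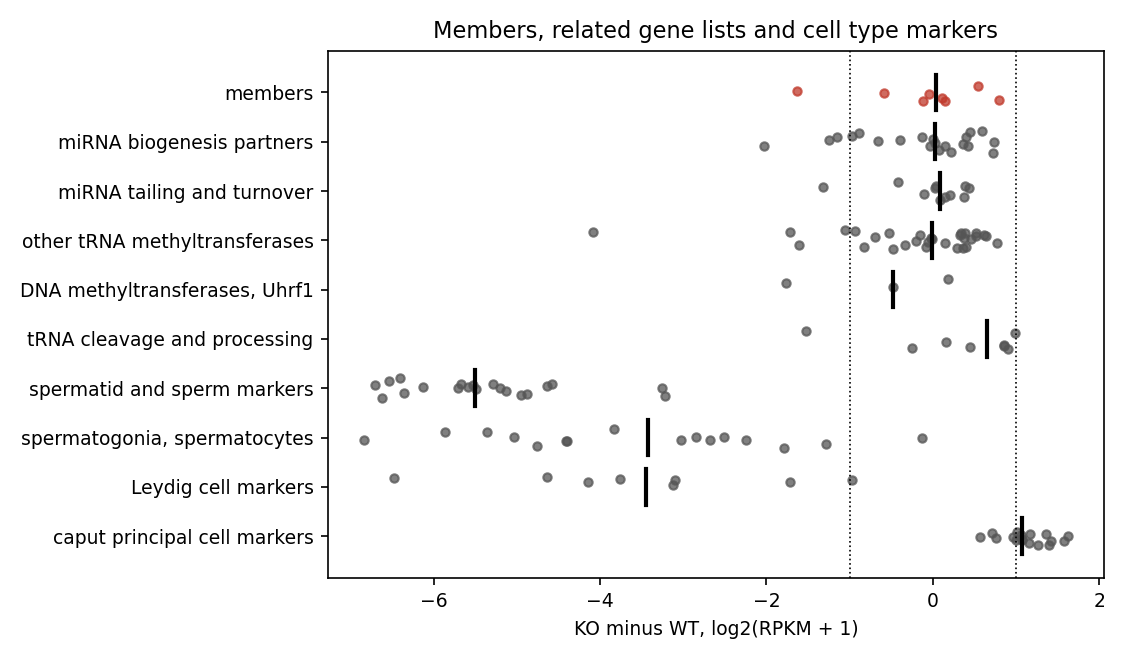
Difference in log2(RPKM + 1), KO minus WT, of each tested gene in the members (red), 5 lists of related genes and 4 lists of cell type markers (grey); black bars are medians and dotted lines mark 2-fold. The median of the members is 0.03, that of the spermatid and sperm markers -5.51 and that of the caput principal cell markers 1.08.

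The members' mRNAs were also looked for among the small RNAs. The small RNA files skip between 2 and 23 of their top 100 ranks, so a low value of a single sequence may reflect a skipped rank. Reads at skipped ranks are also missing from the base and from the class shares given below. Over the 10 libraries 233 reads matched them, 193 of them distinct sequences when counted per library. Testis held 95 of these reads, caput at 13 months 68, corpus and cauda 69, and caput at 2 months 1. In caput at 13 months there were 13 reads in KO, or 0.708 RPM (0.377 to 1.21; reads per 1000000 classified reads), and 55 reads in WT, or 3.98 RPM (2.997 to 5.18), a ratio of 0.178 (0.0892 to 0.330). Testis had 59 reads in KO and 36 in WT (1.43, 0.928 to 2.22), corpus 6 and 28 (0.745, 0.252 to 1.83), and cauda 21 and 14 (2.15, 1.04 to 4.58). The reads of the WT caput lay near the rate of the testis libraries, at 6.00 RPM in KO testis and 4.20 RPM in WT testis. The same ratios over all mRNA-matched reads are not given here, so these ratios are not shown to be particular to the members.

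**Figure D4:**
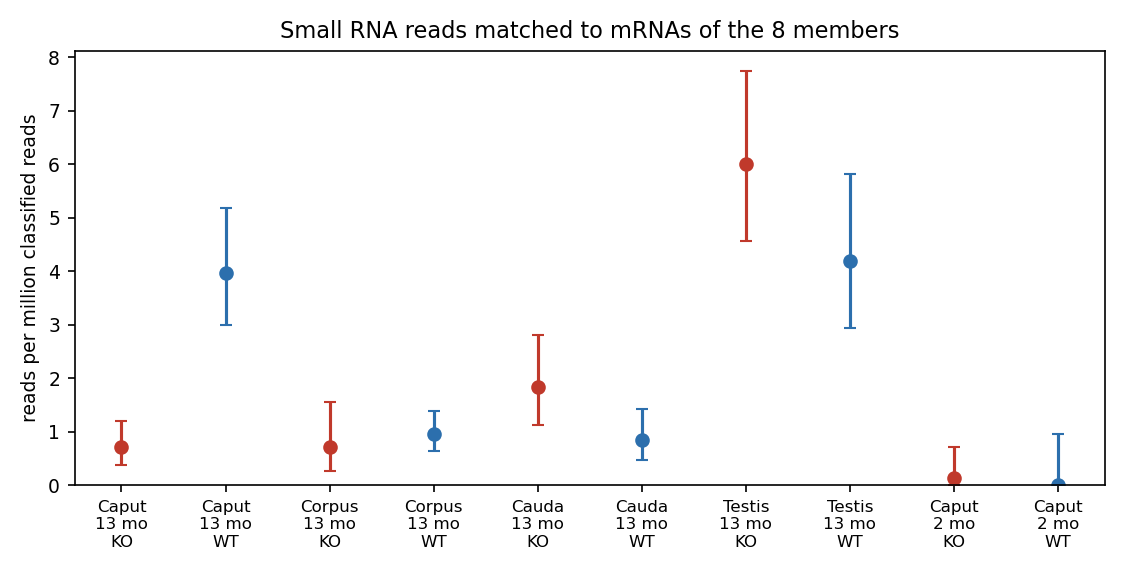
Reads matched to mRNAs of the 8 genes in RPM (classified small RNA reads as the base) in each of the 10 libraries, KO (red) left of WT (blue) in each pair; bars are exact Poisson intervals at 95% and cover counting error only. Both testis libraries and the WT caput at 13 months lie above the others.

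Most of the caput gap lay in Dgcr8. It had 1 read in KO caput and 26 reads in WT caput at 13 months (ratio 0.0290, 0.000706 to 0.176), against 18 in KO testis and 10 in WT testis, 0 and 5 in corpus, and 1 and 3 in cauda. The sequences printed next are the most abundant fragments of Dgcr8 and Tarbp2 and one of the 2 most abundant of Nsun2, shown because their length and first base are those of piRNAs, the germline small RNAs bound by PIWI proteins; the capital marks that first T.
Dgcr8 fragment: Tagacccgaactgtagtggccacagcccgc
Tarbp2 fragment: Tgacgatcatttttccattggcgtgagctc
Nsun2 fragment: Tgagaaaaaacattgatgtctggaaga

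The 30 nt Dgcr8 fragment had 1 read in KO caput and 15 reads in WT caput. The most abundant testis fragment of Dgcr8, with 2 reads in KO testis and 3 reads in WT testis, starts 3 nt upstream and shares 28 nt with it. At this site 7 distinct sequences hold 30 reads, namely 1 in KO and 19 in WT caput, and 7 in KO and 3 in WT testis, with 0 in every other library. The 30 nt Tarbp2 and 27 nt Nsun2 fragments had 3 reads each, all in WT testis. Another Nsun2 sequence, 32 nt long and also beginning with T, had 3 reads, all in KO testis.

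Reads of 24 to 32 nt that begin with T, the form of piRNAs, made up 2 of 13 member reads in KO caput and 30 of 55 in WT caput at 13 months. They were 25 of 59 in KO testis and 23 of 36 in WT testis, and 1 of 69 in corpus and cauda together. Among all mRNA-matched reads the share of this form was 5.26% in KO caput and 45.7% in WT caput, and 56.0% in KO testis and 60.0% in WT testis, so this class too held more of the form in WT caput and in testis than in KO caput. Without reads of this form the ratio of the members was 0.331 in caput at 13 months and 2.28 in testis, and without mismatched reads it was 0.409 in corpus. By gene, Tarbp2 had 23 of its 30 reads in testis and Mettl1 10 of 19, of which 5 were 1 sequence with 2 mismatches in KO testis. Dicer1 had 23 of 43 reads in corpus and cauda, Nsun2 16 of 43, and Xpo5 and Prkra had 17 and 6 reads in all. All 11 Trdmt1 reads carry the class tRNA in the deposited files although the matched entry is the Trdmt1 mRNA.

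The products of the pathway were set beside the transcripts. Reads classed as miRNA made up 77.4% of classified reads in KO caput and 55.2% in WT caput at 13 months (ratio 1.40), 71.4% and 75.3% in corpus, 62.1% and 57.7% in cauda, 17.3% and 17.1% in testis, and 98.1% and 97.9% in caput at 2 months. With piRNA and mRNA reads left out of the base, the caput ratio at 13 months was 1.15, and counted as distinct sequences it was 2.86. Dicer sets the length of a miRNA, and 22 nt was the commonest length in all 10 libraries. Reads of 22 nt were 66.3% of named miRNA reads in KO caput and 61.6% in WT caput, 45.4% and 42.0% in corpus, and 86.6% and 89.4% in caput at 2 months. In cauda the share was 43.6% in KO and 53.2% in WT, where 21 nt reads had 27.4% and 19.8%, and in testis it was 37.3% and 41.5%, where 23 nt reads had 33.8% and 27.3%. The mean length in caput at 13 months was 21.8 nt in both libraries.

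**Figure D5:**
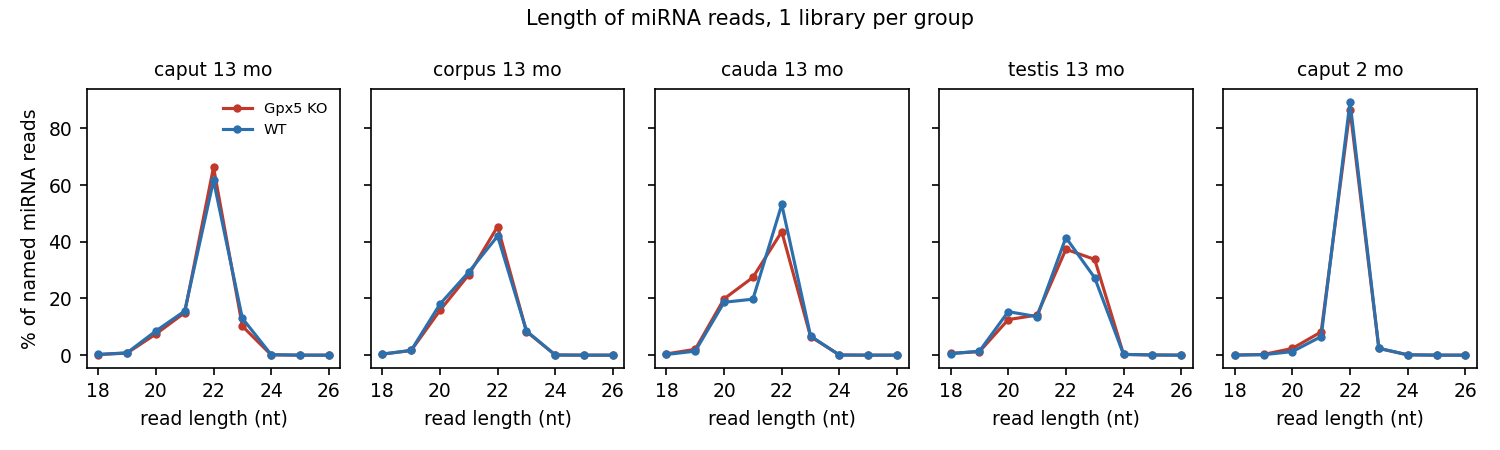
Length of reads assigned to a named miRNA as a percentage of such reads, in nt, for KO (red) and WT (blue) in each of the 5 tissue and age pairs, 1 library each. All curves peak at 22 nt, and the wider gaps between genotypes are in cauda and testis.

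Single miRNAs that use the pathway in unusual ways were compared next. miR-1306 is cut from a hairpin within Dgcr8 itself (RefSeq, GRCm38.p6, minus strand; hairpin chr16:18284239-18284317, Dgcr8 chr16:18253948-18289251), and the Microprocessor is known to cut hairpins of the Dgcr8 mRNA. miR-484 and miR-320 are known to be made without Drosha and Dgcr8 from capped short transcripts, and miR-451a without Dicer, by Argonaute 2. The mature sequences printed next are from RefSeq (GRCm38.p6), with the seed, bases 2 to 8, in capitals, and are shown because each marks a route that goes around or targets a member; their seeds differ.
miR-1306-5p: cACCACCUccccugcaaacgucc
miR-1306-3p: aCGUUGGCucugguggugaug
miR-484: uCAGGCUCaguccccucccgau
miR-451a: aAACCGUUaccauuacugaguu

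Reads holding an inner stretch of 15 nt of miR-1306 or of miR-3618, another hairpin miRNA in Dgcr8, numbered 7 in KO caput and 25 in WT caput at 13 months (ratio 0.211 per classified read, 0.0770 to 0.501). Testis had 35 in KO and 36 in WT (0.847, 0.516 to 1.39), corpus 8 and 42 (0.662, 0.269 to 1.43), cauda 11 and 6 (2.63, 0.892 to 8.66), and caput at 2 months 0 in both. Per named miRNA read, miR-1306-5p alone was at 4.01 in cauda (1.0006 to 23.02), from 9 reads in KO and 3 in WT. Among the counts of both hairpins together, only the interval of the 13-month caput left out 1 at this depth. The Dgcr8 mRNA of that tissue was at 0.912. The germ cell markers and the Dgcr8 fragments were lower in the same KO tissue, and their part was not tested.

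With named miRNA reads as the base, miR-484 counted by its inner sequence was at 54.1 RPM in KO caput and 152 in WT caput at 13 months (ratio 0.356, 0.321 to 0.395). It was at 159 in KO and 35.6 in WT corpus (4.46), 95.02 and 60.1 in cauda (1.58), 106.8 and 80.1 in testis (1.33), and 7.18 and 1.23 in caput at 2 months (5.82, from 47 and 4 reads). miR-320-3p, by name, was at 76.0 in KO caput and 143 in WT caput at 13 months (0.532, 0.483 to 0.585), 211 and 205 in corpus, 88.1 and 68.3 in cauda, and 365 and 272 in testis. The Dicer-independent miR-451a was at 60.7 in KO caput and 51.4 in WT caput by inner sequence (1.18, 1.03 to 1.36) and at 1.01 by name. Over the 132 miRNAs of that caput pair that reached 100 RPM in either library and had reads in both, the median ratio was 0.562, and by the same rule it was 1.52 in caput at 2 months, 1.03 in testis, 1.25 in cauda and 0.906 in corpus. Against the caput median at 13 months, miR-320-3p lay close, miR-484 below and miR-451a above. No measure of miR-484, miR-320-3p or miR-451a was tested, and no mRNA was measured outside the caput at 13 months.

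Fragments from the 5′ end of tRNA-Gly, tRNA-Val and tRNA-Asp, for which Trdmt1 is a methyltransferase, were compared last. They are plus-strand reads classed as tRNA, counted by their first 7 bases. This start does not tell apart tRNAs of the same amino acid that share it. The reads are thus not shown to come only from tRNAs that Trdmt1 methylates. Those of tRNA-Gly took 11.2% of classified reads in KO caput and 12.2% in WT caput at 13 months (ratio 0.913), 12.4% and 13.4% in corpus, 21.4% and 27.03% in cauda, 0.470% and 0.519% in testis, and 0.285% and 0.295% in caput at 2 months. Those of tRNA-Val took 5.45% in KO caput and 6.27% in WT caput (0.870), 5.74% and 3.97% in corpus, 7.41% and 7.51% in cauda, 0.346% and 0.345% in testis, and 0.510% and 0.355% in caput at 2 months. In the KO caput transcriptome of that age Trdmt1 was at 0.955 and Nsun2 at 0.645 of the WT level. These directions depend on the counting. As distinct sequences the caput ratios at 13 months were 3.21 for tRNA-Gly and 3.10 for tRNA-Val, and without the 10 most abundant sequences 0.732 and 0.654. In corpus tRNA-Gly was at 0.605 without its 10 most abundant sequences. tRNA-Asp fragments were rare, with 1 read in KO caput and 17 reads in WT caput.

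The lengths of these fragments differed by tRNA more than by genotype. Of the tRNA-Gly fragments 50.1% in KO caput and 46.9% in WT caput at 13 months were 30 to 34 nt long, the size of a tRNA cut in its anticodon loop, and 49.0% and 52.0% were 18 to 24 nt long. These longer fragments were 32.1% in KO and 27.8% in WT corpus, 49.8% and 39.8% in cauda, 11.8% and 10.4% in testis, and 92.6% and 89.1% in caput at 2 months, so the KO library held the higher share in each pair. Of the tRNA-Val fragments 99.6% in KO caput and 99.7% in WT caput at 13 months were 30 to 34 nt long. The shares were 99.4% in KO and 99.3% in WT corpus, 99.5% and 99.7% in cauda, and 96.2% and 97.5% in testis. In caput at 2 months they were 99.62% and 99.61%. For tRNA-Val the KO library thus did not hold the higher share in each pair.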

How the data were processed

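Small RNAs were measured in 10 libraries and the caput transcriptome in 2. Per the labels' protocols tissue was pooled instead of replicated, so each group is 1 library. Per the file headers, the authors computed the deposited RPKM values of each RefSeq transcript with GFOLD 1.1.3. Per the submitters' processing notes, mm9 was the build, and TopHat2 and Bowtie 0.12.7 are listed with no role given. The log2 fold changes and GFOLD values were deposited by the authors too, and their empirical false discovery rate (the E-FDR column, taken as a q-value) is 1 throughout the 28344 transcripts. The small RNA files deposited by the authors hold a read count per distinct sequence and its matched entry, per the file headers, with up to 2 mismatches. At 2 months 5419 (KO) and 5531 (WT) lines carry a spreadsheet date in place of rank and count, and the count was read from the month.

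A gene was represented by its transcript with the highest mean RPKM. Genes reaching 1 RPKM in either library were compared as the difference in log2(RPKM + 1), a scale that understates changes of low genes, and called at 1 or more either way, with no test. Reads were recovered from both RPKM values and the deposited log2 fold change, and 100% of 2594 transcripts with at most 20 such reads came out whole within 0.1 reads. This assumes that the fold change is the scaled ratio of reads plus 1, a formula not stated in the sources used here, and every recovered count and its interval rests on it. No count test was possible without replicates. Ratios have exact conditional binomial intervals, levels exact Poisson and shares Clopper-Pearson intervals, all at 95%. Reads carry no molecular identifiers, so intervals and the floor of 3 counts cover counting error only. Classified small RNA reads per library ranged from 3855476 to 29049669, where the floor is 0.778 and 0.103 RPM.

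Small RNA fragments were attributed to a member by its RefSeq accession. Each miRNA was counted by name on the plus strand or by 15 nt starting after base 3 of the mature sequence. All names of the 8 members matched RefSeq, and 27575 transcripts had an accession there. All 8 members, Gpx5, the called genes of each list (up to 3 per direction) with its 2 most abundant genes, the 3 genes nearest to the member with the largest difference, and up to 3 sequences per member are named. Other genes named besides these (Drosha, Ago2, Wdr4, Lin28a, Dnmt3a, Ang, Rnh1, Stra8, Fshr and the other Sertoli cell markers) were chosen after their values were seen. The members and the gene lists were chosen with earlier results of these data known. Scripts were tested on simulated data, in Python 3 with numpy and scipy. Alternatives covered the pseudocount, filter, fold, transcript summary, centring, base and mismatches.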

Additional observations from a re-analysis of the deposited data

Results flagged for a closer look

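Ratios of KO to WT that lay on opposite sides of 1 by at least 2-fold in different tissue or age pairs, each from at least 10 reads and with a counting interval that left out 1, drew attention. Small RNA fragments of the members' mRNAs had a ratio of 0.178 in caput and 2.15 in cauda at 13 months. Ratios over all mRNA-matched reads are not given here, so these values are not shown to be particular to the members. miR-484 had 0.356 in caput and 4.46 in corpus at 13 months, and 5.82 in caput at 2 months, by inner sequence, and 0.345, 7.04 and 5.70 by name. The set of miRNAs made without Drosha and Dgcr8, which holds miR-484, had 0.454 in caput at 13 months and 2.57 in caput at 2 months. The median ratio over all miRNAs of a pair that reached 100 RPM was 0.562 in caput and 0.906 in corpus at 13 months and 1.52 in caput at 2 months, so both caput medians lay on the same side of 1 as miR-484 did there. miR-877-5p by inner sequence had 0.223 in caput and 3.21 in cauda, and miR-1306-5p 0.142 and 4.01. The 5′ tRNA-Asp fragments had 0.0443 in caput (1 read in KO and 17 reads in WT), 93.9 in corpus (27 and 1) and 3.48 in cauda (17 and 7). With 1 library per group, no difference between tissues or ages was tested. The tRNA-Asp, miR-877-5p and miR-1306-5p values rest on few reads, and each corpus file skips 11 of its top 100 ranks. In caput at 13 months piRNA-like member reads and germ cell markers were lower in the same KO tissue, and their part was not tested.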

How the results depend on the processing

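Counts of genes past 2-fold depended on the scaling most. Over all genes, 415 were higher with the values as reported, 698 with a pseudocount of 0.1, 190 with 5, 8 centred on the caput principal cell markers, 62 rescaled without genes at least 8-fold different, 1004 by log2 fold changes in the authors' deposited table and 2570 at 1.5-fold. Those lower were 3321, against 3765 with a pseudocount of 0.1, 2073 with 5 and 7713 centred on the markers. They were 4081 rescaled and 4361 at 1.5-fold, each out of 15000 tested genes. The counts of members and lists that follow are to be read beside these numbers. Of the members, 4 were lower centred on the markers, and at 1.5-fold 2 were lower (Tarbp2 and Nsun2) and 1 was higher (Mettl1). Centred on the markers, 12 of 21 miRNA pathway partners, 5 of 11 tailing genes and 16 of 30 genes of the tRNA methyltransferase list were lower. So were 2 of 3 DNA methylation genes and 2 of 8 tRNA cleavage genes. Rescaled, 6 partners and 7 genes of the tRNA methyltransferase list were lower. At 1.5-fold, 6 partners and 7 genes of that list were lower, 3 of each were higher, and 4 tRNA cleavage genes were higher. With a pseudocount of 0.1, 5 partners were lower and 1 tRNA cleavage gene was higher, as was 1 with summed transcripts and 1 by the authors' deposited table. With a pseudocount of 5, 0 tailing genes and 2 genes of the tRNA methyltransferase list were lower. With at least 5 RPKM, 0 of 9 tailing genes were lower, against 2544 of all 10537 genes that passed this filter. Tarbp2 ranged from -1.20 with a pseudocount of 5 to -2.71 centred on the markers. Of 63 member differences under alternatives 7 had the other sign: Dicer1, Xpo5, Prkra and Mettl1 centred on the markers, Xpo5 and Prkra rescaled (both at -0.28), and Trdmt1 in the authors' deposited table (0.00). Of 53 small RNA ratios under alternatives 15 lay on the other side of 1. The cause was not tested. No paired analysis was possible because each group has 1 library. Low counts limit Mettl1, Trdmt1 and the fragments most.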
